A study of Mus musculus with 16 samples.

Results

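The subject is 10 genes of glucose production in the liver: the enzyme genes Pck1, G6pc, Fbp1 and Pcx, the glucose 6-phosphate carrier gene Slc37a4, and the regulator genes Ppargc1a, Crtc2, Creb1, Nr3c1 and Hnf4a. They were taken by name from the genes on the array, each with its brightest probe set that carried exactly 1 gene symbol, and all 10 of them were among the 18820 genes measured. The samples were livers of male mice on the C57Bl/6J background, aged 14 to 16 weeks, on 16 whole-transcript arrays. There were 4 arrays each from wild type mice that were fed, vanin-1 knockout mice that were fed, wild type mice fasted for 24 h and vanin-1 knockout mice fasted for 24 h (below fed WT, fed KO, fasted WT and fasted KO). All mice lived on standard chow, which the fed groups kept over those 24 h. Vanin-1 is a pantetheinase, and the knockout mice are described in the labels only as null for it, without the allele. No label states outright that the arrays stem from separate animals, and the p-values therefore reflect only how far these samples spread.

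Gluconeogenesis makes glucose from lactate, amino acids and glycerol when no food comes in. Pyruvate carboxylase (Pcx) turns pyruvate into oxaloacetate, phosphoenolpyruvate carboxykinase (Pck1) turns that into phosphoenolpyruvate, fructose 1,6-bisphosphatase (Fbp1) removes a phosphate further up, and glucose 6-phosphatase (G6pc) frees glucose inside the endoplasmic reticulum, to which the Slc37a4 carrier brings its substrate. Glucagon acts through cAMP, the transcription factor CREB (Creb1) and its coactivator Crtc2, glucocorticoids act through their receptor (Nr3c1), and the coactivator PGC-1α (Ppargc1a) works with the nuclear receptor HNF4α (Hnf4a) on the same enzyme genes.

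Levels are log2 intensities made by RMA, each ± SD with n = 4 arrays, and they are compared within a gene only, since arrays do not give levels that can be set between genes. Over the table the values ran from 1.26 to 14.19 with array medians from 5.19 to 5.29, and every value of the 10 genes lay above these medians. A gene is called where its adjusted p is below 0.05, with limma's moderated test on all 16 arrays and Benjamini-Hochberg adjustment over the 18820 genes. The labels were checked on Vnn1, the targeted gene, which lay at 6.71 or above on every wild type array and at 4.26 or below on every knockout array. The 8 hepatocyte markers had mean log2 levels of 12.82 to 13.04 on all arrays. Fasted WT 4 (each array is called by its group and the number in its title) carried pancreas transcripts, with Ctrb1 at 10.12 against 3.71 to 4.44 on the other arrays. Where a wild type fasting call reported below for a named gene was lost without this array, the adjusted p without it is given. Genes that are only counted within a list are not named. In whole liver, fewer cells of a type and less RNA per cell cannot be told apart.

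The promoters of Pck1, G6pc and Ppargc1a are shown because these genes are the textbook targets of cAMP and insulin in this pathway and all 3 rose in fasted wild type liver. Each run is 300 bases from RefSeq (build GRCm38.p6), from 250 bases before to 50 bases after the transcription start, 5′ to 3′ on the gene's strand. Capitals mark TGACG, the short core of the cAMP response element, and CAAAACA, a core of insulin response elements bound by FoxO factors, either of them on either strand.
Pck1, chr2:173152823-173153122, plus strand: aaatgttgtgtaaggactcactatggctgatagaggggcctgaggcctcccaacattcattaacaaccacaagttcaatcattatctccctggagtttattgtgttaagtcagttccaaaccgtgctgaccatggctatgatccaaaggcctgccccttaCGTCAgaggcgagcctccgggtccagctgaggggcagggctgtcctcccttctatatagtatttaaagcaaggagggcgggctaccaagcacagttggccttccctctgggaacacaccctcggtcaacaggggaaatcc
G6pc, chr11:101367466-101367765, plus strand: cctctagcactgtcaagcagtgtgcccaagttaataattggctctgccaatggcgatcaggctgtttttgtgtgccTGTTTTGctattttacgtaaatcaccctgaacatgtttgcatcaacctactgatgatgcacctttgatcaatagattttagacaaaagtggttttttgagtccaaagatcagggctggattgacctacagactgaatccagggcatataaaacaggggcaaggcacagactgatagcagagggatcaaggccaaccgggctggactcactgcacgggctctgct
Ppargc1a, chr5:51567676-51567975, minus strand: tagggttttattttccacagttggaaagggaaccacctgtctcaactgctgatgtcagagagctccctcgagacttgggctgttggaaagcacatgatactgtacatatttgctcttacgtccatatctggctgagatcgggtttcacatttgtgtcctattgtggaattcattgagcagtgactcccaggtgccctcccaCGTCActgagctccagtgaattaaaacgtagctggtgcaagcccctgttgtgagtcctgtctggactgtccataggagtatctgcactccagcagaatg
The cAMP core begins 90 bases before the start in Pck1 and 49 bases before it in Ppargc1a, on the opposite strand in both. The FoxO core begins 174 bases before the start in G6pc, also on the opposite strand. Windows were at hand for 8 of the 10 genes, not for Crtc2 or Nr3c1. TGACG occurred in 3 of the 8 (Pck1, Ppargc1a and Slc37a4) and in 20.8% of all 32851 windows, and CAAAACA in 1 of the 8 (G6pc) and in 6.28% of all windows. TATAAA was found in G6pc and Slc37a4 (13.6% of all windows). Slc37a4 had several windows, and its TGACG and TATAAA matches lay in different ones. A gene was counted where any of its windows matched, while the shares are per window, so counts and shares are not in the same unit. The full element TGACGTCA, which contains the short core, was found in none of the 8 (1.79% of all windows), nor were TGTTTAC, a core of FoxO and FoxA sites (3.65%), AGAACA, a core of glucocorticoid receptor sites (19.0%), or CAAAGTCCA, an HNF4 site (0.475%). These are matches of letters in 1 window per start and not measured binding.

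The response of the 10 genes to fasting was measured first in wild type liver. Ppargc1a, Pck1, G6pc, Pcx and Hnf4a rose, Nr3c1 fell, and Fbp1, Slc37a4, Crtc2 and Creb1 did not pass the test. The rise was 2.78-fold for Ppargc1a and between 1.18-fold and 1.52-fold for the other genes that rose. So 5 of 10 were called higher, against 3.34% of all genes, and 1 lower, against 4.27%, where these genes were chosen with earlier results of these data known. Without fasted WT 4 the shares of all genes were 2.08% and 2.59%, and 4 of the 10 were called higher and 1 lower. All 10 are bright genes. In a fit of only the genes above the 50th percentile of the mean, 16.8% were called in either direction, against 7.61% of all genes. The median log2 difference was 0.32 over the 10 genes and 0.011 over all genes.

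Among the enzymes, Pck1 (probe set 10479047) lay at 12.27, 12.55, 12.79 and 12.42 on fed WT arrays 1 to 4 and at 13.02, 13.04, 13.08 and 13.05 on fasted WT arrays 1 to 4. The groups did not overlap, and the fasted arrays stood closer together (SD 0.03) than the fed arrays (SD 0.22). The difference was 0.54 on the log2 scale (SE 0.10, 1.45-fold, limma adjusted p = 0.00312).

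G6pc (probe set 10381387) stood at 12.33, 12.57, 12.62 and 11.93 in fed WT and at 12.95, 12.92, 13.14 and 12.85 in fasted WT liver. Fed WT 4 was the lowest array, and again no fasted array reached down to a fed one. The mean went from 12.36 ± 0.31 to 12.96 ± 0.12 (SD, n = 4), a log2 difference of 0.60 (SE 0.125, 1.52-fold, limma adjusted p = 0.00686).

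Pcx (probe set 10460400) gave 11.25, 11.13, 11.21 and 10.76 in fed WT and 11.36, 11.55, 11.65 and 11.81 in fasted WT liver. Here too the groups were apart, with fed WT 4 low and fasted WT 4 high. The log2 difference was 0.50 (SE 0.11, 1.41-fold, limma adjusted p = 0.0106), and the call was lost with only these 2 groups in the fit (adjusted p = 0.0619). For both genes of the first 2 steps from pyruvate, Pcx and Pck1, the lower bound of the 95% interval of the difference was above 0 (0.26 and 0.33).

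Fbp1 (probe set 10410007) behaved otherwise. Its level was 12.99 ± 0.04 in fed and 13.01 ± 0.14 in fasted WT liver (SD, n = 4), and the arrays overlapped. The 95% interval of the difference ran from -0.16 to 0.19 on the log2 scale, which is 0.897-fold to 1.14-fold (limma adjusted p = 0.937).

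Slc37a4 (probe set 10584741), the carrier, had the widest spread of the enzyme and carrier genes, with 10.78, 11.42, 11.55 and 10.77 in fed WT and 11.08, 11.50, 11.47 and 12.06 in fasted WT liver. The groups overlapped, the highest array being fasted WT 4. The log2 difference was 0.40 (95% interval -0.02 to 0.83, limma adjusted p = 0.267), 0.22 without fasted WT 4 (adjusted p = 0.618) and 0.28 without fed WT 4 (adjusted p = 0.527).

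**Figure D1:**
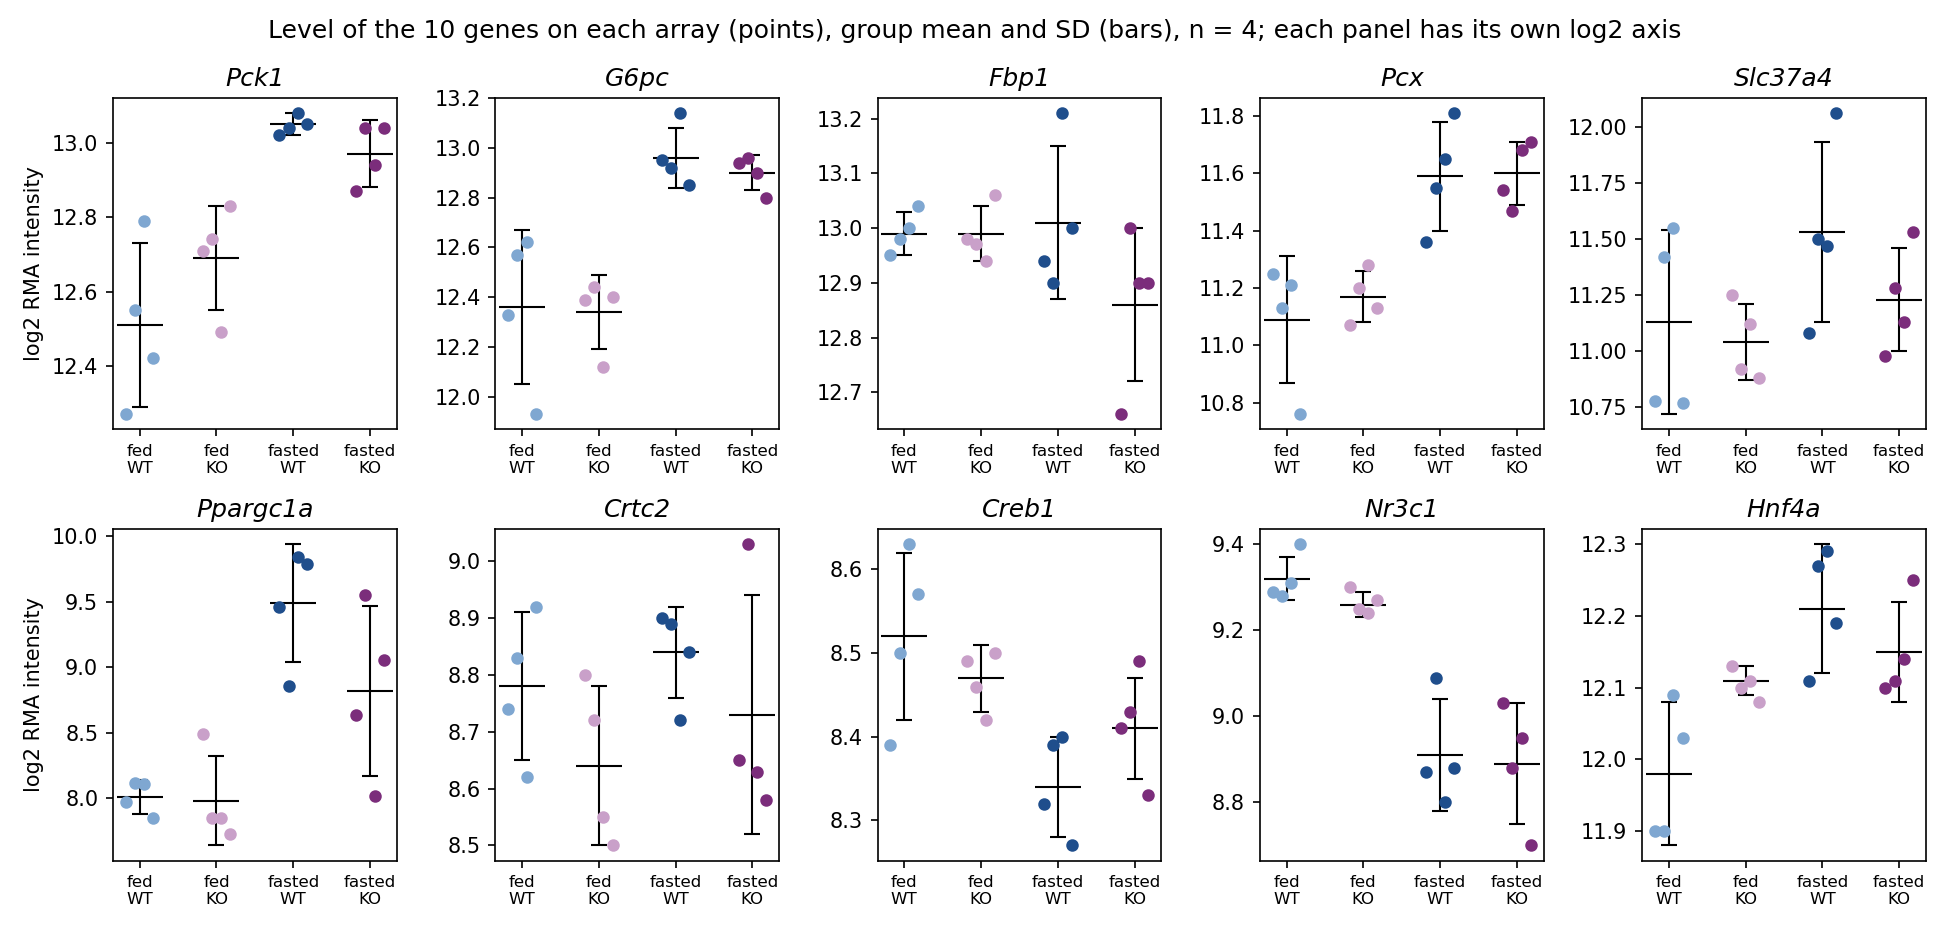
Log2 RMA intensity of each of the 10 genes on every array (points), with the group mean (long bar) and SD (capped bar) over 4 arrays; each panel has its own axis, so heights cannot be read across genes. Fasted arrays lie above all fed arrays for Pck1, G6pc and Pcx in both genotypes and below them for Nr3c1. Fbp1, Slc37a4, Crtc2 and Creb1 overlap between all groups compared.

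Of the regulators, Ppargc1a (probe set 10529979) had the largest change. Its fed WT levels were 7.97, 8.12, 8.11 and 7.85 and its fasted WT levels 9.46, 8.86, 9.84 and 9.79. All fasted arrays were higher, with fasted WT 2 the lowest of them. The log2 difference was 1.48 (SE 0.27, 2.78-fold, 95% interval 1.88-fold to 4.11-fold, limma adjusted p = 0.00283), and it lay between 1.36 and 1.69 whichever array was left out.

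Nr3c1 (probe set 10458569), the glucocorticoid receptor gene, went the other way. It read 9.29, 9.28, 9.31 and 9.40 in fed WT and 8.87, 9.09, 8.80 and 8.88 in fasted WT liver, with no overlap. It fell by 0.41 on the log2 scale (SE 0.08, 1.33-fold lower, limma adjusted p = 0.00477).

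Hnf4a (probe set 10478389) shifted little, from 11.90, 11.90, 12.09 and 12.03 in fed WT to 12.11, 12.27, 12.29 and 12.19 in fasted WT liver. The groups did not overlap, by a narrow margin. The log2 difference of 0.23 (SE 0.07, 1.18-fold) had a limma adjusted p of 0.0473, and it missed the threshold in 13 of the 16 fits that left out 1 array (adjusted p up to 0.123), the exceptions being those without fasted WT 1, fed WT 3 or fed KO 4. It also missed it with quantile normalization and cyclic loess, with only these 2 groups in the fit (adjusted p = 0.151), with the plate column in the array names as a fixed term (0.0576) and without the 3 arrays whose deposited names end in 2 (0.131), a mark the labels do not explain.

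The cAMP partners Creb1 (probe set 10346943) and Crtc2 (probe set 10493711) did not pass. Creb1 was 8.52 ± 0.10 in fed and 8.34 ± 0.06 in fasted WT liver (SD, n = 4), a log2 difference of -0.18 with a 95% interval of -0.32 to -0.04 and a limma adjusted p of 0.127. Crtc2 was 8.78 ± 0.13 and 8.84 ± 0.08, with an interval of -0.16 to 0.28 (adjusted p = 0.789). For both proteins the regulated step is known to be phosphorylation, which an array does not measure.

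The same comparison in vanin-1 knockout liver called G6pc and Pcx higher and Nr3c1 lower, and 7 of the 10 genes did not pass. That is 2 of 10 called higher, against 4.53% of all genes, and 1 lower, against 4.89%. With only the genes above the 50th percentile of the mean in the fit, 20.4% were called in either direction, against 9.42% of all genes. The median log2 difference was 0.14 over the 10 genes and 0.020 over all genes. The groups did not overlap for 3 genes that were higher on fasted arrays (8.89% of all genes) and for 1 that was lower (8.07%); in wild type liver these numbers were 5 (6.02%) and 1 (6.39%).

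G6pc lay at 12.39, 12.44, 12.12 and 12.40 in fed KO and at 12.94, 12.96, 12.90 and 12.80 in fasted KO liver. Fed KO 3 was low, and all fasted arrays were above all fed ones. The log2 difference was 0.56 (SE 0.125, 1.48-fold, limma adjusted p = 0.00807).

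Pcx went from 11.07, 11.20, 11.28 and 11.13 in fed KO to 11.54, 11.47, 11.68 and 11.71 in fasted KO liver, again without overlap. Its log2 difference was 0.43 (SE 0.11, 1.35-fold, limma adjusted p = 0.0205). This call was lost without fasted KO 3 (adjusted p = 0.0559), fasted KO 4 (0.0669) or fed KO 1 (0.0628), and without the 3 arrays whose names end in 2 (0.0959), where 5.12% of all genes were called in either direction against 9.42% with them.

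Nr3c1 read 9.30, 9.25, 9.24 and 9.27 in fed KO and 9.03, 8.88, 8.95 and 8.70 in fasted KO liver. The fed arrays were close together (SD 0.03) and all above the fasted ones. The fall of 0.37 on the log2 scale (1.3-fold lower, limma adjusted p = 0.00628) differed from that in wild type liver by 0.04, with a 95% interval of -0.20 to 0.27.

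Pck1 was 12.71, 12.74, 12.49 and 12.83 in fed KO and 12.87, 13.04, 12.94 and 13.04 in fasted KO liver. The groups did not overlap, but the lowest fasted array (12.87) stood only just above the highest fed array (12.83). The log2 difference of 0.28 (95% interval 0.07 to 0.49, 1.22-fold) had a limma adjusted p of 0.0891 and so missed the threshold. The adjusted p was 0.0462 without fed WT 3 and 0.047 with arrays weighted by their spread, and these 2 of 32 alternative settings called the gene.

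Ppargc1a overlapped between the knockout groups. Fed KO arrays gave 8.49, 7.85, 7.85 and 7.73 and fasted KO arrays 8.64, 9.55, 8.02 and 9.06. Fasted KO 3 lay below fed KO 1, and the SD of the fasted KO group was 0.65. The log2 difference was 0.84 (95% interval 0.27 to 1.40, 1.78-fold, limma adjusted p = 0.0594). It was 1.10 without fasted KO 3 (adjusted p = 0.00885), 1.01 without fed KO 1 (0.0348), 0.84 without fasted WT 2 (0.0422) and 0.59 without fasted KO 2 (0.176). A further probe set of the gene (10529977), dimmer and not used above, gave 1.35 in wild type and 0.68 in knockout liver, against 1.48 and 0.84.

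The remaining 5 genes did not pass in knockout liver. The log2 difference was 0.19 for Slc37a4 (95% interval -0.24 to 0.61), -0.12 for Fbp1 (-0.30 to 0.05), 0.09 for Crtc2 (-0.13 to 0.31), -0.06 for Creb1 (-0.20 to 0.09) and 0.04 for Hnf4a (-0.10 to 0.19). Limma adjusted p was between 0.422 and 0.781 for these 5 genes.

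**Figure D2:**
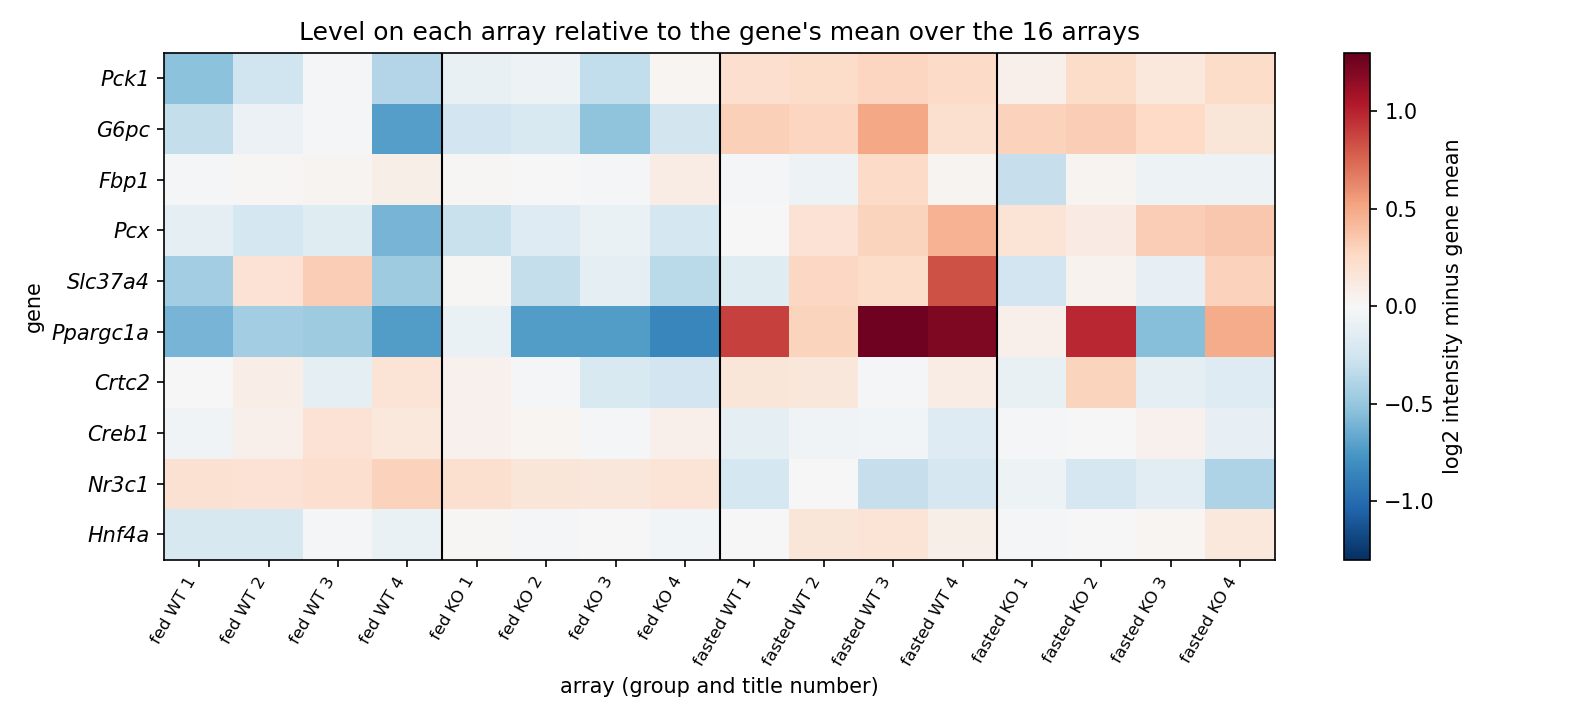
Colour gives the log2 intensity of each gene (rows) on each of the 16 arrays (columns, grouped by black lines) minus the gene's own mean over all arrays. Ppargc1a spans the widest range (7.73 to 9.84), with fasted KO 3 at 8.02 among the fed arrays, and fed WT 4 is low for both G6pc (11.93) and Pcx (10.76).

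With both genotypes in one comparison, the fasted against fed comparison rests on 8 against 8 arrays and called Ppargc1a, G6pc, Pcx and Pck1 higher and Nr3c1 lower. These 4 of 10 higher and 1 of 10 lower stand against 8.4% and 9.88% of all genes. With only the genes above the 50th percentile of the mean in the fit, 34.6% were called in either direction, against 18.3% of all genes. The log2 differences were 1.16 (SE 0.19) for Ppargc1a, 0.58 (SE 0.09) for G6pc, 0.47 (SE 0.08) for Pcx, 0.41 (SE 0.07) for Pck1 and -0.39 (SE 0.06) for Nr3c1, with limma adjusted p from 1.21e-04 to 5.08e-04. For Pck1, G6pc and Pcx every fasted array of either genotype was above every fed array (2.17% of all genes), and for Nr3c1 every fasted array was below (2.57%). Hnf4a missed the threshold (log2 difference 0.14, adjusted p = 0.0584), as did Creb1 (-0.12, 0.103) and Slc37a4 (0.29, 0.175).

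Loss of vanin-1 was asked about in each feeding state. None of the 10 genes was called in fed KO against fed WT liver (limma, smallest adjusted p = 0.861; 0 at an unadjusted p under 0.05, beside 5.76% of all genes) or in fasted KO against fasted WT liver (smallest adjusted p = 0.867; 1 at an unadjusted p under 0.05, beside 5.49%), where 0.00531% and 0.0159% of all genes were called. All 10 overlapped between the genotypes in both states, where 3.12% of all genes in fed and 3.15% in fasted liver did not. Averaged over both feeding states the genotypes gave no call either (limma, smallest adjusted p = 0.823; 0 at an unadjusted p under 0.05, beside 6.17% of all genes, and 0.00531% of all genes called). These p-values do not show that the levels are alike, so the intervals are given.

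In fed liver the knockout to wild type ratio had a 95% interval of 0.819 to 1.18 for G6pc, 0.981 to 1.31 for Pck1, 0.898 to 1.25 for Pcx and 0.882 to 1.12 for Fbp1. For Slc37a4 it ran from 0.703 to 1.27. Ratios of the regulators ran from 0.664 to 1.45 for Ppargc1a, 0.782 to 1.06 for Crtc2, 0.872 to 1.06 for Creb1, 0.855 to 1.08 for Nr3c1 and 0.987 to 1.21 for Hnf4a. Fed Pck1 and Hnf4a had the intervals that lay farthest to the side of the knockout, at means of 12.69 ± 0.14 and 12.11 ± 0.02 against 12.51 ± 0.22 and 11.98 ± 0.10 in wild type (SD, n = 4).

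In fasted liver the gene at an unadjusted p under 0.05 was Ppargc1a, at 8.82 ± 0.65 in knockout and 9.49 ± 0.45 in wild type liver (SD, n = 4). It was lower in the knockout by 0.67 on the log2 scale (1.59-fold, 95% interval of the ratio 0.426 to 0.930, unadjusted p = 0.0228, limma adjusted p = 0.867), and fasted KO 2 at 9.55 and fasted KO 4 at 9.06 lay within the wild type range of 8.86 to 9.84. Leaving out 1 array moved this difference between -0.91 (without fasted KO 2) and -0.40 (without fasted KO 3). The interval of the ratio was 0.821 to 1.10 for Pck1, 0.796 to 1.15 for G6pc, 0.856 to 1.19 for Pcx, 0.801 to 1.02 for Fbp1 and 0.605 to 1.09 for Slc37a4, whose log2 difference was -0.30, and -0.12 without fasted WT 4. For Nr3c1 it was 0.877 to 1.11, for Hnf4a 0.864 to 1.06, for Crtc2 0.795 to 1.08 and for Creb1 0.951 to 1.16.

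Whether the fasting response itself depended on vanin-1 was tested as the difference of the fasting changes. None of the 10 genes was called (limma, smallest adjusted p = 0.948; 0 at an unadjusted p under 0.05), nor was any other gene (0.0% of 18820, with 924 or 4.91% at an unadjusted p under 0.05). Knockout minus wild type, the difference was -0.64 for Ppargc1a (95% interval -1.44 to 0.16; -0.88 without fasted KO 2 and -0.38 without fasted KO 3), -0.26 for Pck1 (-0.55 to 0.04) and -0.19 for Hnf4a (-0.40 to 0.01). It was -0.04 for G6pc (-0.41 to 0.33) and -0.07 for Pcx (-0.40 to 0.26). So the genes called in wild type but not in knockout liver (Ppargc1a, Pck1 and Hnf4a) are not shown to respond differently.

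**Figure D3:**
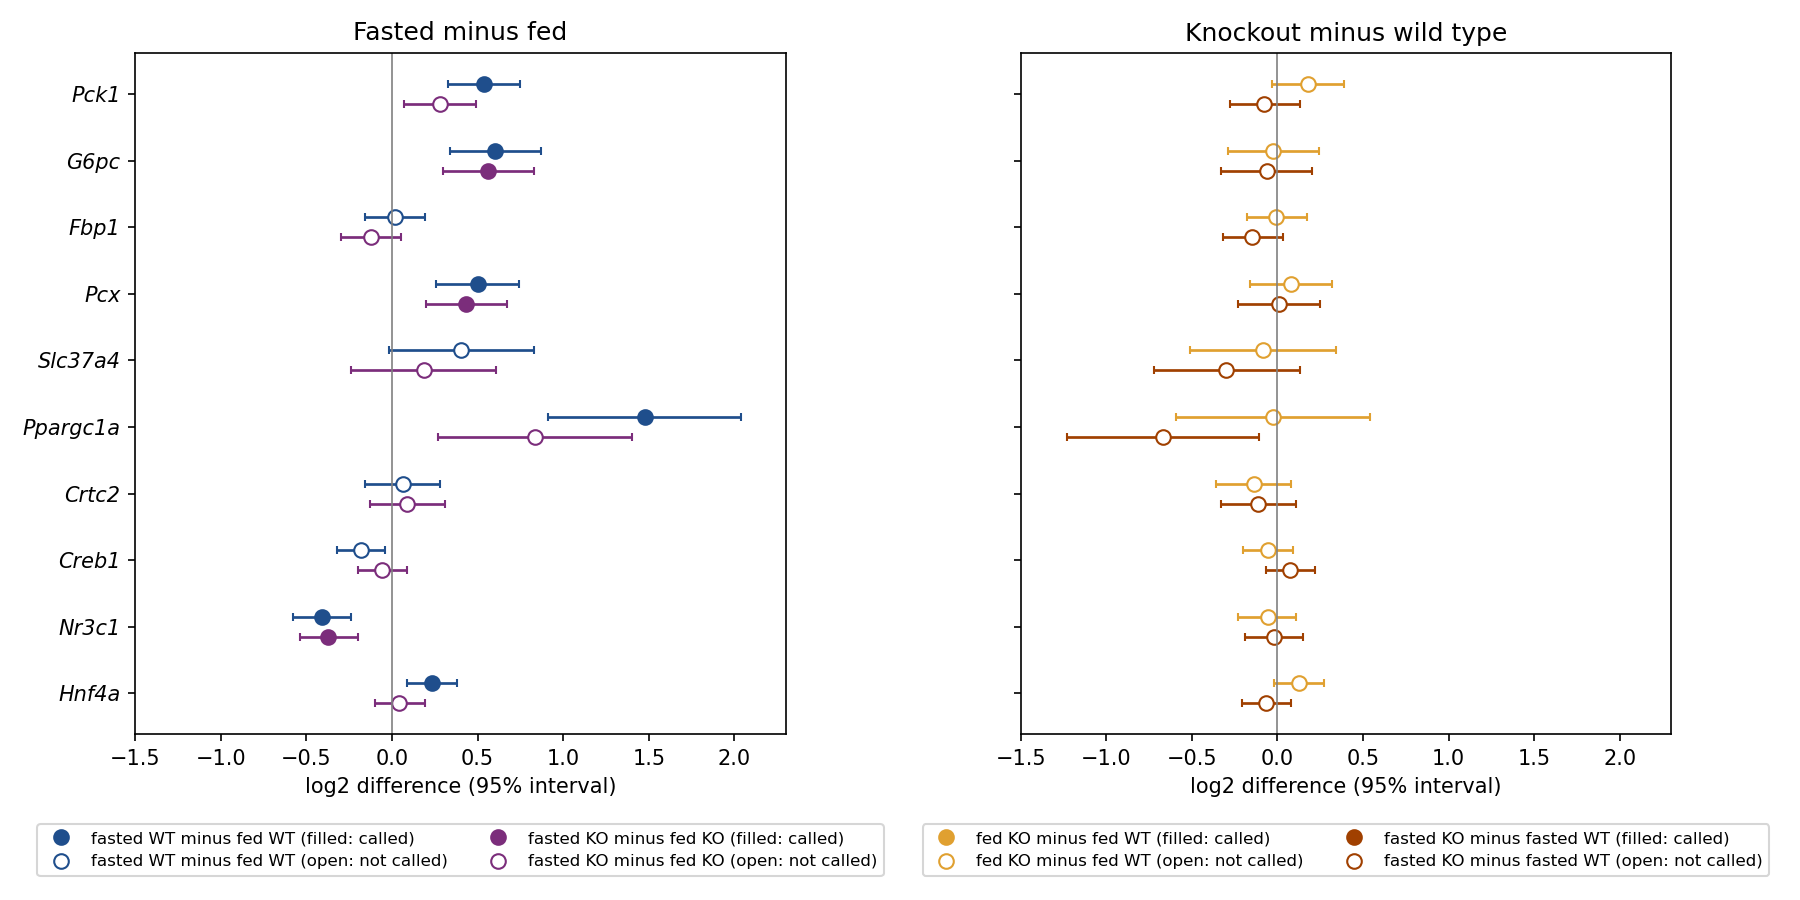
Log2 difference of each gene with its 95% interval (limma, 16 arrays), fasted minus fed on the left and knockout minus wild type on the right; filled points passed the test and open points did not. The filled points are all on the left, 6 in wild type and 3 in knockout liver, and the widest intervals are those of Ppargc1a and Slc37a4.

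The other genes of the route were described from lists written with earlier results of these data known. Of 22 further enzymes and carriers measured, 4 rose and 1 fell in wild type and 6 rose and 1 fell in knockout liver (median log2 differences 0.20 and 0.13, beside 0.011 and 0.020 over all genes). Of all genes 3.34% rose and 4.27% fell in wild type and 4.53% and 4.89% in knockout liver. Without fasted WT 4, 2 of the 22 rose and 1 fell in wild type liver, beside 2.08% and 2.59% of all genes. Gpt2, the mitochondrial alanine aminotransferase that yields pyruvate, rose 1.79-fold in wild type (limma adjusted p = 6.45e-04) and 1.40-fold in knockout liver (0.0210). Got1, the cytosolic aspartate aminotransferase of the malate-aspartate shuttle, rose 1.92-fold in wild type liver (0.0258; 0.0931 without fasted WT 4) and was 1.28-fold higher in knockout liver without passing (0.435). Slc2a2, the glucose transporter of the hepatocyte membrane, fell 1.54-fold (0.0246) and 1.56-fold (0.0176). Pck2, the mitochondrial form of the Pck1 enzyme, did not pass, with log2 differences of 0.10 and 0.00.

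Of the glucagon and cAMP list, 1 of 21 genes rose and 1 fell in wild type liver and 2 rose and 1 fell in knockout liver, beside the same shares of all genes. Without fasted WT 4 none of the 21 was called in wild type liver, beside 2.08% of all genes higher and 2.59% lower. Sik1, a kinase that restrains Crtc2, rose 2.17-fold in wild type liver (limma adjusted p = 0.0247; 0.0637 without fasted WT 4) and was 1.40-fold higher in knockout liver (0.360). Pde4b, a cAMP phosphodiesterase gene, fell 1.75-fold (0.0250; 0.0760 without fasted WT 4) and 1.96-fold (0.00659), while Pde4d, another, rose 2.3-fold in knockout liver (0.00107) and was 1.60-fold higher in wild type liver (0.0513). Gcgr, the glucagon receptor gene, did not pass in either genotype (0.07 and 0.12 on the log2 scale).

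Among 29 other transcriptional regulators 6 rose and 1 fell in wild type and 1 rose and 3 fell in knockout liver, beside 3.34% and 4.27%, and 4.53% and 4.89%, of all genes. Without fasted WT 4, 5 rose and 2 fell in wild type liver, beside 2.08% and 2.59% of all genes. Foxo1, the insulin-restrained activator of G6pc and Pck1, rose 1.44-fold (limma adjusted p = 0.00799) and 1.32-fold (0.0315). Cebpa, a hepatocyte factor, fell 1.56-fold (6.92e-04) and 1.62-fold (2.14e-04), and Cebpb, a related factor, rose 1.95-fold in wild type liver (0.0104) and was 1.36-fold higher in knockout liver (0.239). None of these differences between the genotypes passed the test of the fasting responses.

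Glucocorticoid and FoxO target genes rose in 8 of 16 cases in wild type and in 3 of 16 in knockout liver, and none fell; the median log2 differences were 0.84 and 0.41, beside 0.011 and 0.020 over all genes, of which 3.34% and 4.53% rose. Without fasted WT 4, 4 of the 16 rose in wild type liver, beside 2.08% of all genes, with a median of 0.86. Pdk4, the kinase that shuts pyruvate dehydrogenase, rose 4.58-fold (limma adjusted p = 0.00120) and 10.8-fold (1.44e-05), and Igfbp1, an insulin-repressed secreted protein, 3.95-fold (0.0135) and 6.13-fold (0.00150). Fkbp5, a glucocorticoid-induced chaperone gene, rose 2.58-fold in wild type liver (0.0359; 0.115 without fasted WT 4) and was 1.85-fold higher in knockout liver (0.170). In the opposite direction of the pathway, Pklr, the pyruvate kinase of liver, fell 2.64-fold (0.00607) and 2.83-fold (0.00253), and Pfkl, a subunit of phosphofructokinase, did not pass (-0.19 and -0.17 on the log2 scale).

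**Figure D4:**
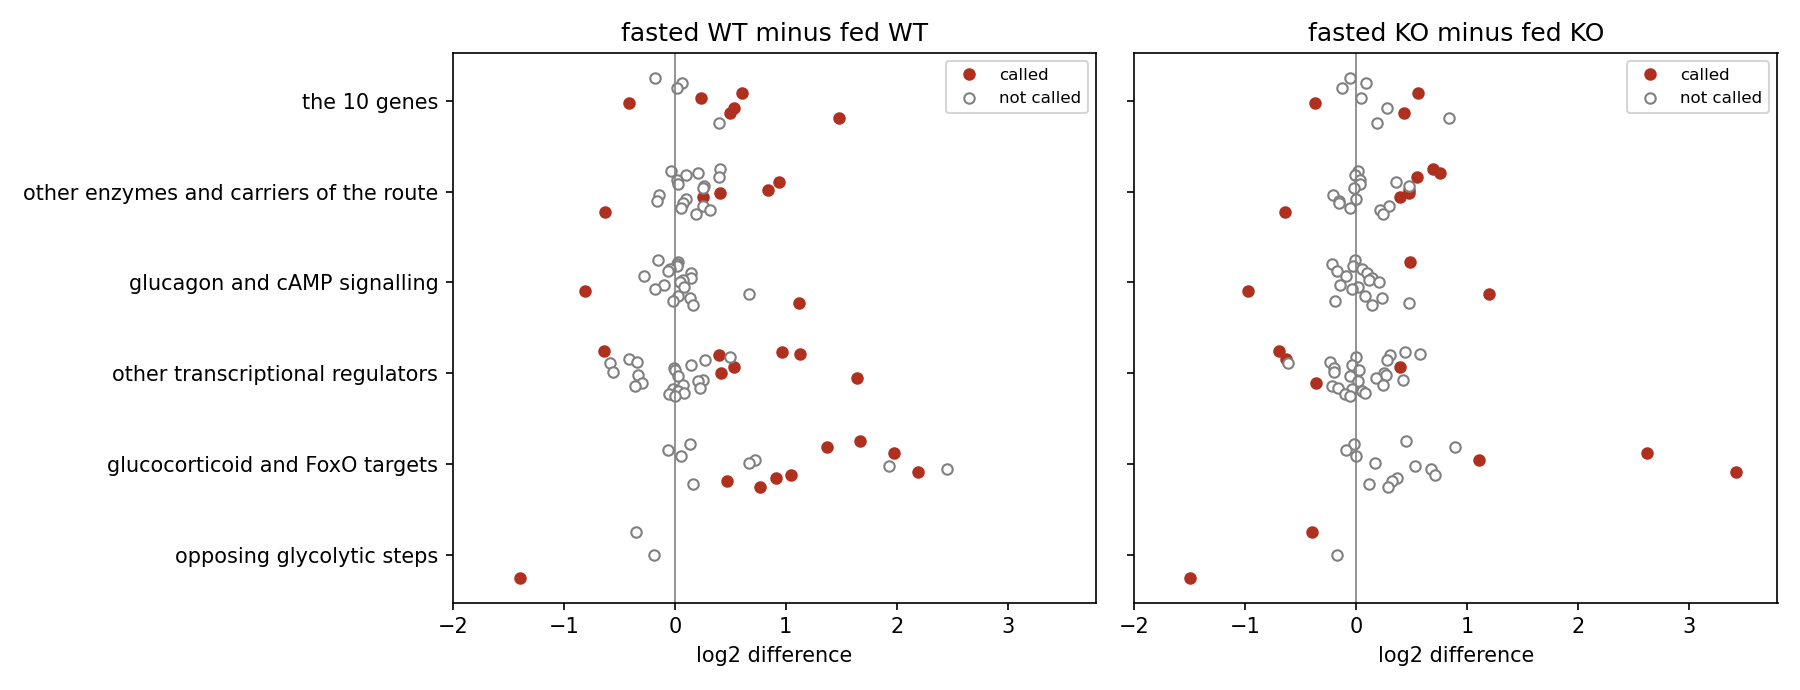
Log2 difference on fasting of every measured gene of each list (points, spread vertically for legibility), wild type on the left and knockout on the right; red points passed the test. The glucocorticoid and FoxO targets hold the largest rises, up to Pdk4 at 3.43 in knockout liver, and Pklr the largest fall, at -1.5.

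Genes with the most similar profile were found by the root mean square difference of log2 levels over the 16 arrays, each gene centred on its own mean. Nearest to Ppargc1a (whose own spread by this measure was 0.729) was Slc41a3, a magnesium transporter gene, at 0.316, followed by Slc25a22, Golt1a, Gjc3 and Sorbs3 at 0.380 to 0.388. Nearest to G6pc (own spread 0.334) were Wdr34 at 0.112 and Cpt1a, the gate of mitochondrial fatty acid oxidation, at 0.118, then Acad11, Lgals8 and Brap at 0.143 to 0.145. Nearest to Pck1 (own spread 0.247) were Adam23, Atp2a2, Fam3a, the transcription factor gene Klf15 and 9130401M01Rik, at 0.119 to 0.127. Klf15 rose 1.33-fold in wild type liver (limma adjusted p = 0.0327; 0.0951 without fasted WT 4) and was 1.19-fold higher in knockout liver (0.196).

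Markers of other cells and of liver zones were set beside these results. With both genotypes together 4 of 8 Kupffer cell markers fell on fasting (Vsig4, Cd5l, Adgre1 and Csf1r, by 1.24-fold to 1.57-fold), beside 9.88% of all genes; without fasted WT 4 there were 2 (Adgre1 and Csf1r), beside 8.78%. The summed intensity of the list was 3720 to 5520 in fed WT, 3460 to 4160 in fed KO, 2940 to 4060 in fasted WT and 2540 to 4100 in fasted KO liver. Of 6 stellate cell markers 3 fell (Lrat, Col1a1 and Col3a1), beside the same 9.88% of all genes. The list summed to 4190 to 4700, 4280 to 4700, 4460 to 4980 and 4130 to 4870 in the same order. The 3 were also called without fasted WT 4, beside 8.78% of all genes lower. The erythroid gene Alas2 fell 1.76-fold. Of 8 hepatocyte markers Ttr and Trf fell 1.13-fold and 1.10-fold and 6 did not pass, again beside 9.88% of all genes lower. Without fasted WT 4 none of the 8 passed, beside 8.78% of all genes lower. None of 6 endothelial cell, 6 leukocyte and 4 cholangiocyte markers was called with both genotypes together, beside 8.4% of all genes higher and 9.88% lower. By their mean level, 4 of these leukocyte and 2 of these cholangiocyte markers lay below the highest array median, where changes are hard to see. Without fasted WT 4, 1 of the 4 cholangiocyte markers fell, beside 8.78% of all genes. Pck1 and G6pc are known as periportal genes. Of 7 periportal markers listed only 4 were measured, without Sds, Ass1 and Gls2. Of these 4, Hsd17b13 rose in both genotypes and 3 did not pass. Of all genes 3.34% rose in wild type and 4.53% in knockout liver. Of 8 pericentral markers Cyp1a2 fell in both genotypes and 7 did not pass, beside falls of 4.27% and 4.89% of all genes. In wild type liver Cyp1a2 missed the threshold without fasted WT 4 (limma adjusted p = 0.0703). The part of these shifts in the results on the 10 genes was not tested. Pancreas transcripts on fasted WT 4 aside, without that array the wild type differences of Pck1, G6pc, Pcx, Ppargc1a and Nr3c1 were all still called, and that of Hnf4a was not (adjusted p = 0.0871).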

How the data were processed

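Liver RNA of 16 samples (4 in each of 4 groups, by the submitters' titles and characteristics) was hybridised to whole-transcript arrays. The deposited table holds log2 values for 35556 probe sets, made with RMA per the submitters' processing notes; the array's build and other steps: not given in the sources used here. Genes were named through the platform's gene table: 21218 probe sets had 1 symbol, 1881 had several and were left out, and 12457 were not in that table. For 1386 genes with several probe sets the one with the highest mean over all arrays was used. No filter on low values was applied, and all 10 genes also entered the alternatives filtered at the 30th or 50th percentile of the mean. Scanner files were not used here, so depth is not defined and the number of arrays limits the precision.

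Using limma 3.58.1 (R 4.3.3), group means were fitted for 18820 genes over the 16 arrays together, with 12 degrees of freedom from the arrays and 4.66 from the prior, and p-values of each contrast were adjusted (Benjamini-Hochberg) across those genes. The script was tested on simulated data. All 10 genes are named, together with Vnn1. From each list and fasting comparison up to 3 called genes per direction with the largest change are named. So are the 5 nearest genes to Pck1, G6pc and Ppargc1a, and called cell type markers. Ctrb1 and Saa2 are named outside these rules, to describe single arrays. Pck2, Gcgr and Pfkl were added after their values were seen. The 10 genes and the lists were chosen with earlier results of these data known. Alternatives covered the normalization, dim genes, probe sets, arrays left out, blocks, the variance model and the threshold.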

Additional observations from a re-analysis of the deposited data

Results flagged for a closer look

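Each group of 4 arrays was searched for a single array far from the others, by Dixon's test at its 95% critical value, for each of the 10 genes; of the 40 groups examined 3 held one, where chance gives about 1 in 20. G6pc was low on fed KO 3, at 12.12 against 12.39 to 12.44 on the other fed KO arrays (gap over range 0.834). Ppargc1a was high on fed KO 1, at 8.49 against 7.73 to 7.85 (0.839), and without this array its fasting difference in knockout liver was 1.01 with a limma adjusted p of 0.0348, against 0.84 and 0.0594 with it. The acute phase gene Saa2 was at 12.06 on that array and at 13.34 on fed KO 4. The other fed KO arrays had it at 7.5 and 7.87. On fed KO 4 Ppargc1a was at 7.73, its lowest level on any array. On fed WT 2, with Saa2 at 10.94, Ppargc1a was at 8.12, just above fed WT 3 at 8.11. On fasted KO 2 Saa2 was at 9.99, against 6.14 to 6.31 on the other fasted KO arrays. Ppargc1a was at 9.55 there, the highest of its group. Fasted WT 4 had the highest Saa2 of its group (9.49), with Ppargc1a at 9.79, below fasted WT 3 at 9.84. The part of Saa2 in the Ppargc1a values was not tested. Crtc2 was high on fasted KO 2, at 9.03 against 8.58 to 8.65 (0.854).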

How the results depend on the processing

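Counts of the 10 genes called were within 1.5 times the value above in 31 of 32 settings for each genotype's fasting comparison and in 30 of 31 for both genotypes together. The exception was a call that also needed a 1.5-fold change, which left 2 genes in wild type (G6pc and Ppargc1a), 0 in knockout and 1 with both together, against 6, 3 and 5. Leaving out 1 array gave 5 to 6, 2 to 4 and 5 to 6 genes. Within that margin, a threshold of 0.01 dropped Pcx (limma adjusted p = 0.0106) and Hnf4a (0.0473) in wild type liver. In knockout liver it dropped Pcx (0.0205). No gene was called between genotypes, or for the difference of the fasting responses, in any setting run, and no called direction reversed. With each array centred on its median 3 genes were called higher and 1 lower in knockout liver, and 5 and 1 with both genotypes together; quantile normalization and cyclic loess gave 4 and 1 in wild type liver. The title numbers are not stated to pair animals. Same-numbered arrays correlated at -0.220 to 0.209 after removal of group means, and 3 of 16 arrays correlated best with their own number; with the replicate block 5 genes were called in wild type (not Hnf4a, adjusted p = 0.0625) and 3 in knockout liver. Over all genes, 1432 were called in wild type liver, but 880 without fasted WT 4 and 829 with only the groups compared, and 1772 in knockout liver, but 964 without the 3 arrays whose names end in 2. At an adjusted p below 0.01, or with a 1.5-fold change, the numbers were 576 or 604 in wild type, 879 or 731 in knockout and 1966 or 695 (against 3440) with both together.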

Other observations

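Further genes of the lists moved with fasting. Among the enzymes Aldoa, an aldolase of the shared part of the pathway, rose 1.62-fold in knockout liver (limma adjusted p = 0.00167) and was 1.33-fold higher in wild type liver (0.0567). G6pc3, the ubiquitous relative of G6pc, rose 1.46-fold in knockout liver (0.0331) and was 1.32-fold higher in wild type liver (0.140). Ldha, which interconverts lactate and pyruvate, rose 1.33-fold in wild type (0.0438) and 1.39-fold in knockout liver (0.0156). Fbp2, the muscle relative of Fbp1, stood below the array medians at 3.96 ± 0.18 in fed and 4.72 ± 0.21 in fasted KO liver (SD, n = 4; adjusted p = 0.00171), with a difference of 0.21 in wild type liver (0.409). Adcy6, an adenylyl cyclase gene, rose 1.40-fold in knockout liver (0.0367) and differed by 0.03 on the log2 scale in wild type liver (0.935). Of the regulators, Nr4a1, a cAMP-induced nuclear receptor, was 5.24 ± 0.45 in fed and 6.88 ± 1.24 in fasted WT liver (adjusted p = 0.0325), and Cebpd 4.53 ± 0.34 and 5.66 ± 0.38 (0.00357), both from fed levels near or below the array medians; their differences in knockout liver were 0.18 (0.867) and 0.58 (0.105). Cry2, a clock repressor, and Nr5a2, a nuclear receptor of bile acid synthesis, fell 1.55-fold (0.0116) and 1.29-fold (0.0245) in knockout liver and were 1.33-fold (0.111) and 1.23-fold (0.0767) lower in wild type liver. With Cry2, the fall in wild type liver passed without fasted WT 4 (0.0420). Foxa2 fell 1.51-fold with both genotypes together (0.0116). Ddit4, a glucocorticoid-induced restraint on mTORC1, rose 3.18-fold in wild type liver (0.0101) and was 1.37-fold higher in knockout liver (0.525). Irs2, an insulin receptor substrate gene, rose 2.16-fold in knockout liver (0.0124) and was 1.65-fold higher in wild type liver (0.115). None of these genes was called for the difference of the fasting responses. Gckr, the inhibitor of glucokinase, fell 1.32-fold in knockout liver (0.0230) and was 1.27-fold lower in wild type liver (0.0553).

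Fed WT 4 had the lowest G6pc (11.93) and Pcx (10.76) of all arrays and the lowest Vnn1 of the wild type arrays (6.71). It also had the highest summed level of the Kupffer cell (5520), endothelial cell (4530) and leukocyte (373) markers. Without it the wild type fasting differences were 0.46 for G6pc (limma adjusted p = 0.0140) and 0.39 for Pcx (0.0321), against 0.60 and 0.50 with it; the part of these markers in the differences was not tested.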
